A study of Mus musculus with 10 samples.

Results

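A set of 10 astrocyte genes was followed in mouse visual cortex after the loss of one eye: the glutamate transporters Slc1a2 and Slc1a3, the bicarbonate transporter Slc4a4, angiotensinogen (Agt), the filament protein Gfap, the water channel Aqp4, glutamine synthetase (Glul), aldolase C (Aldoc), connexin 43 (Gja1) and metallothionein 3 (Mt3). The probe sets, which are groups of short array probes for one transcript, were taken by the gene symbol of the platform annotation. Of the 10 genes, 9 were found through a probe set annotated with that symbol alone, and no probe set of that kind was found for Slc1a3. Gfap, Aqp4, Glul and Gja1 had 2 probe sets each and the 5 other genes had 1, which gave 13 of the 12422 probe sets that are not controls. In the RefSeq table (GRCm38.p6) the 9 genes lie on chromosomes 1 (Glul), 2 (Slc1a2), 5 (Slc4a4), 8 (Agt and Mt3), 10 (Gja1), 11 (Gfap and Aldoc) and 18 (Aqp4).

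The samples were visual cortex of wild-type C57Bl6 mice of postnatal day 18 whose one eye had been removed at postnatal day 14, 4 days earlier. The deprived group (5 samples) was cortex on the contralateral side, which the lost eye had served, and the non-deprived group (5 samples) was cortex on the ipsilateral side. The design text calls the samples pooled and the labels name 4 mice, without saying how these were divided over the 10 samples, so p-values measure only the spread between these samples, which may be technical. Both groups came from enucleated mice, and no intact animal was measured. Each sample was read on 1 one-colour Affymetrix array, whose values are MAS5 signals in arbitrary units. Between groups, signals are compared within a probe set, or as sums over a list in which the brightest probe sets weigh most.

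Astrocytes clear glutamate from synapses through the transporters encoded by Slc1a2 and Slc1a3 and turn it into glutamine with glutamine synthetase. They also buffer acid and potassium around active neurons, pass small molecules to each other through connexin channels, and wrap blood vessels with endfeet rich in aquaporin-4. Around eye opening, cortical astrocytes of the mouse are still maturing, and several of these genes are known to increase in that period.

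None of the 13 probe sets differed between deprived and non-deprived cortex after adjustment over all tested probe sets. Agt, Slc4a4 and Slc1a2 had higher means in deprived cortex, by 105%, 27.7% and 31.8%, with unadjusted p-values of 0.0128, 0.0154 and 0.0165 (limma). The other 10 probe sets had intervals of the difference that included 0. All 13 passed the filter on dim probe sets and belonged to the 7453 tested. Agt passed only through its deprived arrays: its mean log2 value was 7.58 there and 6.59 on non-deprived arrays, and the filter required 7.04. At an adjusted p of 0.05 the limma test called 0 of 13, against 0% of all tested probe sets, whose smallest adjusted p was 0.0503. The members' adjusted p-values lay between 0.992 and 0.997. At an unadjusted p under 0.05 it called 3 of 13, all with a higher mean in deprived cortex, against 4.79% of all tested probe sets (2.43% higher and 2.36% lower in deprived cortex). The estimate was above 0 for 8 of 13, against 52.0%, and the deprived array was higher in at least 21 of 25 pairs for 3 of 13, against 5.17%. These genes were picked with earlier results on the same arrays known, so these counts are descriptions. Agt, which the filter kept only through the group where it was high, is in the counts of 3, 8 and 3. The groups overlapped for all 13 probe sets, so 0 of 13 stood apart, against 0.953% of all tested probe sets (0.483% with the deprived and 0.47% with the non-deprived arrays higher). In bulk tissue, a different number of astrocytes and a different amount of RNA per astrocyte cannot be told apart.

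**Figure D1:**
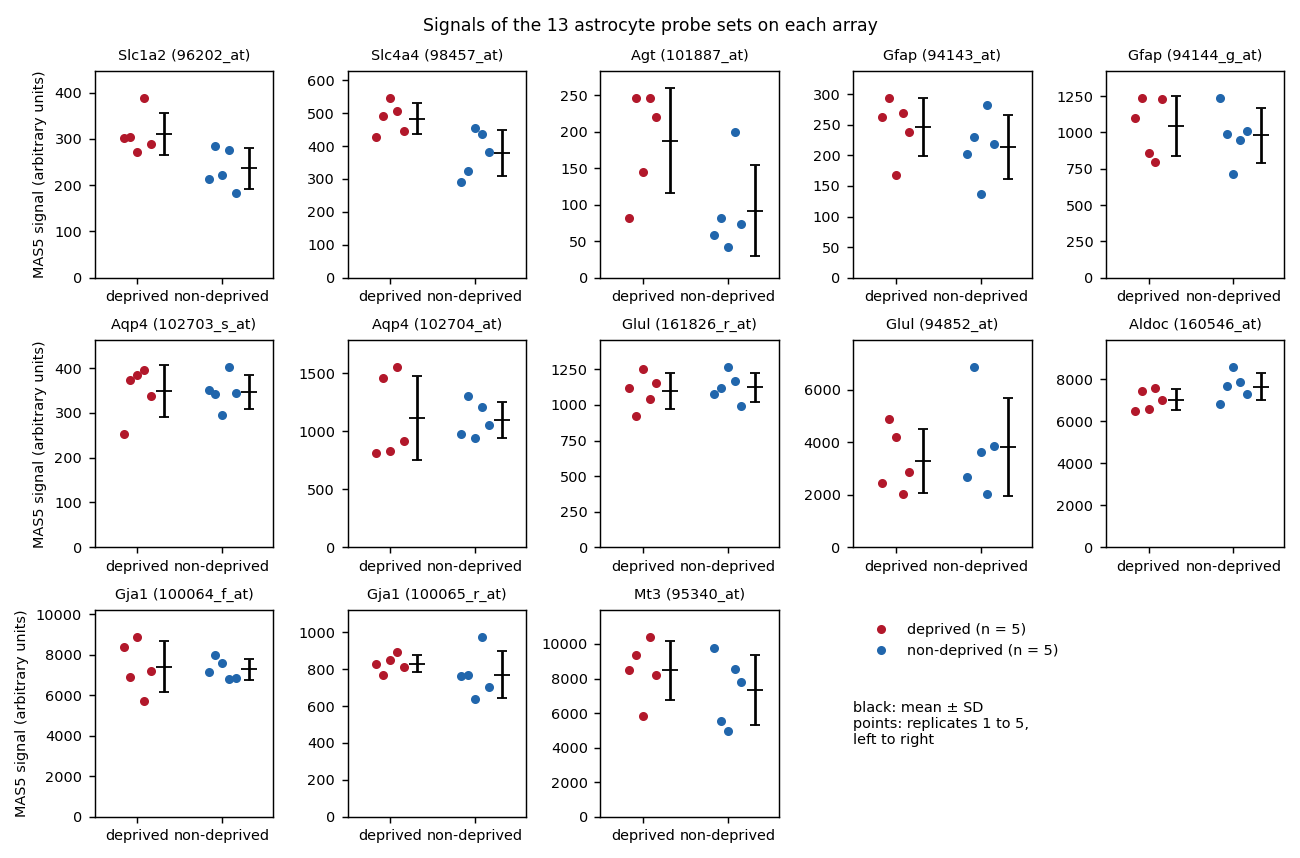
MAS5 signal (vertical axis, arbitrary units, from 0) of each of the 13 probe sets on the 5 deprived (red) and 5 non-deprived (blue) arrays, with replicates 1 to 5 from left to right and the mean ± SD in black. The groups overlap in every panel, and the separation is widest for Slc1a2, where 4 of 5 deprived arrays lie above all non-deprived arrays.

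Measures of quality were read from each array. Arrays of 1 group correlated at 0.957 to 0.979 across the tested probe sets (Pearson, a description across probe sets, which are not independent). The median signal, the 3' to 5' ratio of beta-actin and that of Gapdh gave exact two-sided permutation p-values of 0.254, 0.96 and 0.405 between the groups (n = 5 each; 3 tests, lowest Benjamini-Hochberg adjusted p 0.607). The tissue was checked against a list of neuronal genes, most of which are expressed in neurons of any brain region: all 10 were on the array and above the filter, with 4 estimates above and 6 below 0. Under median scaling, these were 2 and 8, and 3126 of all tested probe sets were above 0 in place of 3875. Of the 10 genes, 1 had an unadjusted limma p under 0.05, against 4.79% of all tested probe sets. That gene was the neurofilament gene Nefm, with means of 506.0 ± 68.0 on deprived and 594.2 ± 39.3 on non-deprived arrays (SD, n = 5 each; log2 -0.23 ± 0.10 SE). The brightest of the 10, the vesicle fusion gene Snap25, averaged 13053 ± 679 on deprived and 12765 ± 581 on non-deprived arrays (SD, n = 5 each). Tbr1, a transcription factor of glutamatergic neurons of the cerebral cortex, averaged 6307 ± 1170 in deprived and 6334 ± 792 in non-deprived cortex (SD, n = 5 each).

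Slc1a2 encodes GLT-1, the transporter that carries most glutamate uptake in the adult forebrain. Its probe set (96202_at) had signals of 303.0, 304.5, 271.6, 389.4 and 289.2 in deprived replicates 1 to 5, against 214.1, 285.2, 222.8, 276.6 and 182.9 in non-deprived replicates 1 to 5. Deprived replicate 4 was the highest of all arrays, and 3 non-deprived arrays lay below every deprived array. The means were 311.5 ± 45.5 in deprived and 236.3 ± 43.4 in non-deprived cortex (SD, n = 5 each). These signals were modest beside array medians of 191 to 209, and a filter at the 60th percentile left the probe set untested. The log2 difference was 0.38 ± 0.14 (SE; 95% interval 0.08 to 0.69), and the deprived array was the higher one in 23 of the 25 possible pairs of a deprived with a non-deprived array. The exact two-sided permutation test on this single value gave p = 0.0317 (n = 5 each), where the smallest p possible is 0.00794. Without non-deprived replicate 5 the difference was 0.30 with a limma p of 0.0502, the only single-array omission in which it did not stay under 0.05.

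Other genes of glutamate handling, taken from a list chosen with earlier results known, lay on both sides of 0. Of 22 genes in that list 11 were tested. None passed at an adjusted p of 0.05 in limma, and 0 of 11 had an unadjusted p under 0.05. Their estimates were above 0 in 4 and below 0 in 7, with a median log2 difference of -0.04, beside 0.0066 for all tested probe sets. The neuronal glutamate transporter Slc1a1 had means of 487.6 ± 70.9 in deprived and 544.1 ± 22.2 in non-deprived cortex (SD, n = 5 each; log2 -0.17 ± 0.11 SE). The Purkinje cell transporter Slc1a6 had 207.8 ± 43.7 in deprived and 170.3 ± 47.7 in non-deprived cortex (SD, n = 5 each; log2 0.28 ± 0.19 SE). For Got2, a mitochondrial aminotransferase that interconverts aspartate and glutamate, the log2 difference was 0.12 ± 0.09 (SE).

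Glul encodes glutamine synthetase, which makes glutamine from the glutamate and ammonia that astrocytes take up. Its 2 probe sets described different patterns over the arrays. The first (94852_at) had signals of 2463.5, 4900.4, 4205.4, 2023.4 and 2860.7 in deprived replicates 1 to 5, against 2693.5, 6863.7, 3634.9, 2010.7 and 3853.6 in non-deprived replicates 1 to 5. Its highest array was 3.41 times its lowest, the high values were in replicates 2 of both groups, and its residual SD was larger than that of 97.9% of tested probe sets. On the log2 scale the difference was -0.16 ± 0.29 (SE), with a 95% interval from -0.80 to 0.47 that covers both a decrease and an increase of moderate size. Without non-deprived replicate 2 the estimate was 0.08, with the opposite sign.

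The other Glul probe set (161826_r_at, of relaxed design rules) spanned 1.37-fold over all arrays. It had signals of 920.7 to 1253.8 in deprived and 992.8 to 1265.3 in non-deprived cortex, with means of 1099 ± 125 in deprived and 1125 ± 101 in non-deprived cortex (SD, n = 5 each). The log2 difference was -0.04 ± 0.10 (SE; 95% interval -0.25 to 0.17). Deviations of the 2 Glul probe sets from their group means had a correlation near 0 over the 10 arrays (Pearson r = -0.13, Spearman rho = -0.08; a description).

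Slc4a4 encodes NBCe1, an electrogenic sodium bicarbonate cotransporter through which astrocytes move base across their membrane. Its probe set (98457_at) had signals of 428.7, 490.5, 547.0, 506.2 and 445.1 in deprived replicates 1 to 5, against 292.2, 325.6, 454.5, 437.3 and 383.2 in non-deprived replicates 1 to 5. Non-deprived replicates 3 and 4 reached into the range of the deprived arrays, and the 3 others lay below it. The means were 483.5 ± 47.6 in deprived and 378.6 ± 69.8 in non-deprived cortex (SD, n = 5 each). As a log2 value the difference was 0.35 ± 0.13 (SE; 95% interval 0.08 to 0.63), with the deprived array higher in 22 of 25 pairs and an exact two-sided permutation p of 0.0397 (n = 5 each). With single arrays left out the estimate ranged from 0.27 (without non-deprived replicate 1) to 0.42 (without non-deprived replicate 3), and the limma p stayed under 0.05 in all 10 omissions.

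The other bicarbonate and acid-base genes lay on both sides of 0. Of 19 listed genes 9 were tested, 0 passed at an adjusted or an unadjusted p of 0.05 in limma, and 5 estimates were above 0 and 4 below (median log2 difference 0.0075, which was -0.03 under quantile normalization, -0.02 under median scaling and 0.06 with the mean of all tested probe sets of each gene). The anion exchanger Slc4a2 had a log2 difference of 0.18 ± 0.11 (SE) and the neuronal anion exchanger Slc4a3 one of 0.06 ± 0.13. Car4, a membrane-bound carbonic anhydrase, had means of 827.7 ± 81.0 in deprived and 936.6 ± 48.8 in non-deprived cortex (SD, n = 5 each; log2 -0.18 ± 0.09 SE).

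Agt encodes angiotensinogen, the protein from which renin cuts angiotensin I; in the brain it is made mainly by astrocytes. Its start of transcription is annotated on chromosome 8, and the 250 bases before it (chr8:124569707-124569956, GRCm38.p6, minus strand, RefSeq) are shown because Agt had the largest difference of the 9 genes. The 250 bases before the start of Slc1a2 (chr2:102706188-102706437, GRCm38.p6, plus strand, RefSeq) are shown beside them, as Slc1a2 had the second largest estimate. Capitals mark matches to the motifs searched.
Agt: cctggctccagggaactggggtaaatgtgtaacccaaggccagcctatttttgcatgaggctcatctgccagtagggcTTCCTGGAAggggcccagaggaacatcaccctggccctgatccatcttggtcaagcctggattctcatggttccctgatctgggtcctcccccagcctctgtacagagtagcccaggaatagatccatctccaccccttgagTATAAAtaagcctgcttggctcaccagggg
Slc1a2: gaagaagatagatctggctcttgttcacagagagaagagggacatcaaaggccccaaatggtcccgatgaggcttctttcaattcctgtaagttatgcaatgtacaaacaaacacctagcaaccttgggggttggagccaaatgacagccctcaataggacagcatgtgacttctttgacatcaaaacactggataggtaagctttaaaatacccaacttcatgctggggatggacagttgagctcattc
Of 7 motifs searched on both strands, the Agt sequence held a TATA box (TATAAA, 25 to 30 bases before the start) and 1 match to the STAT pattern (TTCNNNGAA, 164 to 172 bases before it). Among all 32851 promoters of that length in the table, 12.4% held TATAAA and 7.02% a match to the STAT pattern. The Slc1a2 sequence held neither of these, nor CCAAT (33.8% of all promoters), GGGCGG (32.7%), TGANTCA (AP-1, 6.75%), GCGNGGGCG (EGR, 4.7%) or TGACGTCA (CRE, 1.55%). The Agt sequence held none of these last 5. The search covered 11 promoters of 9 of the 10 genes, with Slc1a3 included and Aqp4 absent. TATAAA was present in 2 of 11 (Agt and Slc1a3) and the STAT pattern in 3 of 11 (Agt, Slc1a3 and an Aldoc start). The AP-1 pattern was present in 1 of 11 (Gja1), and the CRE and EGR patterns in 0 of 11. A match is a description of the letters.

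Agt had the widest difference and the widest spread of the 9 genes. Its probe set (101887_at) had signals of 82.2, 246.6, 144.2, 245.5 and 219.5 in deprived replicates 1 to 5, against 59.0, 82.2, 42.2, 199.4 and 74.1 in non-deprived replicates 1 to 5. Deprived replicates 2, 4 and 5 lay above all non-deprived arrays, deprived replicate 1 was as low as non-deprived replicate 2, and non-deprived replicate 4 lay within the range of the deprived arrays. The means were 187.6 ± 72.2 in deprived and 91.4 ± 62.3 in non-deprived cortex (SD, n = 5 each), with the deprived array higher in 22 of 25 pairs. The log2 difference was 0.99 ± 0.35 (SE), with a 95% interval from 0.24 to 1.73 that reaches from 1.19-fold to 3.31-fold higher. The residual SD of Agt was above that of 98.6% of tested probe sets. The exact two-sided permutation p was 0.0556 (n = 5 each), above 0.05 where the limma p was below it.

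Agt was dim, and it was tested only because of its level in deprived cortex. Its mean log2 value was 7.58 in deprived and 6.59 in non-deprived cortex, and the filter required a mean of 7.04 over all arrays, or a signal of about 115. It fell under the recomputed filter when deprived replicate 2, 4 or 5 or non-deprived replicate 4 was left out. Fitted without the filter, an alternative chosen after seeing the data, it had a log2 difference of 0.80 to 1.28 over the 10 single-array omissions, with unadjusted limma p-values from 0.0012 to 0.043 and no adjusted p below 0.695. Detection calls were not used here, so its distance from background is unknown.

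**Figure D2:**
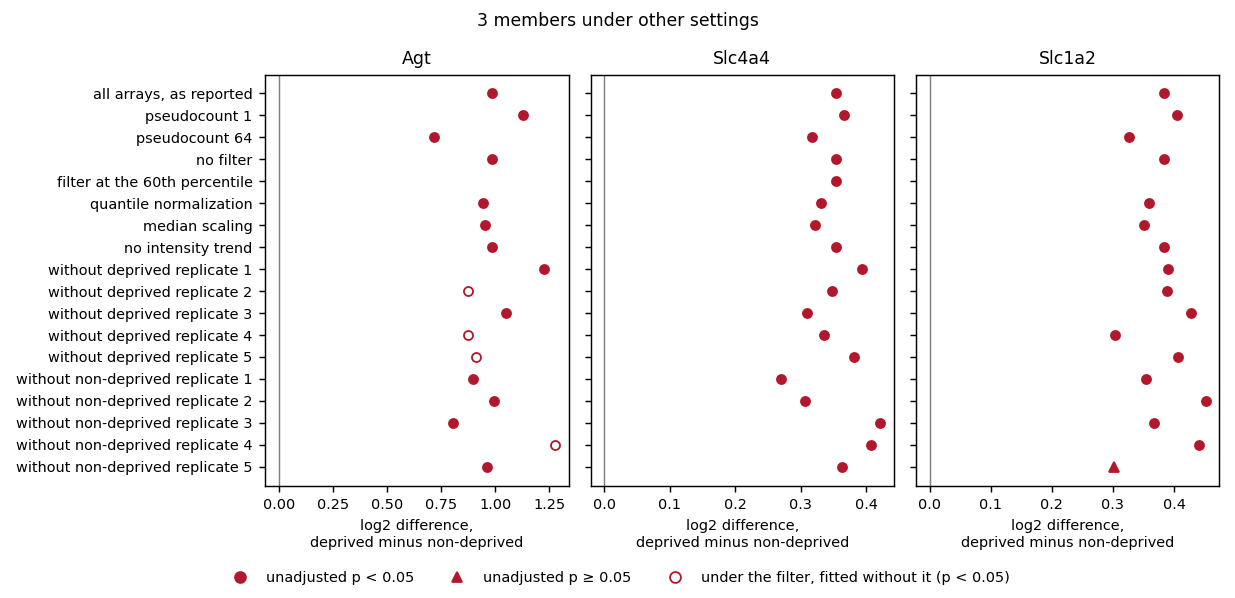
Log2 difference, deprived minus non-deprived (horizontal axis), of Agt, Slc4a4 and Slc1a2 for all arrays and under alternative settings (rows). The replicate block is not drawn, and Agt and Slc1a2 have no point with the filter at the 60th percentile, which leaves them untested. Circles have an unadjusted p under 0.05 and triangles one at or above it; open circles mark Agt where it fell under the filter and was fitted without it. All estimates lie above 0, and the 1 triangle is Slc1a2 without non-deprived replicate 5.

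The rest of the renin-angiotensin system was sparsely covered, since 8 of 20 listed genes were tested. Of these, 5 had an estimate above 0 and 3 had one below it (median log2 difference 0.14), and 0 of 8 passed at an adjusted or an unadjusted p of 0.05 in limma. Ace, which converts angiotensin I to angiotensin II, had means of 136.4 ± 14.5 in deprived and 111.1 ± 18.2 in non-deprived cortex (SD, n = 5 each; log2 0.27 ± 0.15 SE). Its non-deprived mean lay below the filter's signal of about 115, so Ace, like Agt, passed only through its deprived arrays. It is in the count of 5 above 0 and in the median. Enpep, the aminopeptidase that trims angiotensin II, had a log2 difference of 0.18 ± 0.11 (SE), and the prorenin receptor Atp6ap2 one of 0.10 ± 0.11. Rnpep, an aminopeptidase, had one of -0.24 ± 0.17 (SE) and Ctsd, the lysosomal protease cathepsin D, one of -0.06 ± 0.12. Agtr2, a receptor of angiotensin II, was below the filter, and Ren1 and Agtr1a had no probe set annotated with that symbol alone.

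Gfap, the intermediate filament protein whose level increases in reactive astrocytes, did not pass on either probe set. On 94143_at the signals were 262.9, 294.3, 168.4, 268.5 and 238.1 in deprived replicates 1 to 5, against 202.4, 229.9, 137.3, 282.3 and 218.4 in non-deprived replicates 1 to 5. Replicate 3 was the lowest array of both groups. On the log2 scale the difference was 0.20 ± 0.18 (SE; 95% interval -0.19 to 0.60), and without non-deprived replicate 3 it was 0.06. The other Gfap probe set (94144_g_at, which reads a group of similar sequences) had means of 1043 ± 208 in deprived and 979.5 ± 188 in non-deprived cortex (SD, n = 5 each). Its log2 difference was 0.09 ± 0.15 (SE; 95% interval -0.24 to 0.42). As folds, the intervals reach from 0.874 to 1.51 for 94143_at and from 0.844 to 1.34 for 94144_g_at.

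A list of genes of reactive astrocytes gave no call. Of 35 genes 12 were tested, 8 with estimates above and 4 below 0 (6 and 6 under median scaling; median log2 difference 0.04), and 0 of 12 had an adjusted or unadjusted p under 0.05 in limma. The iron-binding protein gene Lcn2 had means of 264.5 ± 39.6 in deprived and 226.0 ± 45.4 in non-deprived cortex (SD, n = 5 each; log2 0.22 ± 0.15 SE). The sphingosine phosphate receptor S1pr3 had a log2 difference of -0.20 ± 0.11 (SE), the galectin Lgals1 one of 0.13 ± 0.14, and Stat3, a transcription factor of the reactive response, one of -0.03 ± 0.12. Vim, the filament partner of Gfap, was below the filter.

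Aqp4, the water channel of astrocyte endfeet, had nearly equal means. Its brighter probe set (102704_at) had signals of 814.7, 1456.5, 827.9, 1551.0 and 916.5 in deprived replicates 1 to 5, against 975.5, 1305.3, 941.2, 1207.6 and 1050.6 in non-deprived replicates 1 to 5. Replicates 2 and 4 were the 2 highest arrays in each group, and the deprived arrays spread more widely on both sides. The means were 1113 ± 360 in deprived and 1096 ± 156 in non-deprived cortex (SD, n = 5 each), with a log2 difference of -0.02 ± 0.18 (SE; 95% interval -0.41 to 0.36). The other Aqp4 probe set (102703_s_at) had means of 348.9 ± 57.4 in deprived and 347.2 ± 37.7 in non-deprived cortex (SD, n = 5 each; 95% interval of the log2 difference -0.28 to 0.28). Of 17 genes of the dystroglycan complex and water channels, 7 were tested, 4 above and 3 below 0 (3 and 4 under either other scaling), and 0 passed at an adjusted or an unadjusted p of 0.05 in limma. The estimate with the smallest p was that of Dtna, the dystrophin-associated protein alpha-dystrobrevin, at -0.27 ± 0.14 (SE).

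Gja1 encodes connexin 43, which forms the gap junctions that couple astrocytes. The family-type probe set (100064_f_at) had signals of 8357.7, 6892.4, 8889.5, 5699.9 and 7196.0 in deprived replicates 1 to 5, against 7162.3, 7973.2, 7602.5, 6821.2 and 6830.7 in non-deprived replicates 1 to 5. Both the highest and the lowest array were deprived, in replicates 3 and 4. The log2 difference was 0.01 ± 0.11 (SE; 95% interval -0.22 to 0.24), and it was -0.02 under median scaling. The probe set of relaxed design rules (100065_r_at) had means of 830.5 ± 46.9 in deprived and 769.9 ± 127 in non-deprived cortex (SD, n = 5 each; log2 0.12 ± 0.11 SE). It had an unadjusted p of 0.0439 without non-deprived replicate 4, the highest array, and of 0.284 with all arrays. Deviations of the 2 Gja1 probe sets had Pearson r = -0.21 and Spearman rho = -0.14 over the 10 arrays (a description). Of 16 other connexin and junction genes 5 were tested, 2 above and 3 below 0 (0 and 5 under either other scaling), and 0 had an adjusted or unadjusted p under 0.05 in limma; Gjb6, connexin 30 of astrocytes, had means of 400.3 ± 43.8 in deprived and 413.1 ± 56.3 in non-deprived cortex (SD, n = 5 each; log2 -0.04 ± 0.12 SE).

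Aldoc, the aldolase of glycolysis that brain astrocytes and Purkinje cells use, was the most tightly measured of the 9 genes. Its probe set (160546_at) had signals of 6500.1, 7449.8, 6577.6, 7579.5 and 6997.1 in deprived replicates 1 to 5, against 6802.8, 7662.1, 8569.5, 7870.5 and 7310.0 in non-deprived replicates 1 to 5. The groups overlapped, and the deprived array was the higher one in 5 of 25 pairs. The means were 7021 ± 491 in deprived and 7643 ± 657 in non-deprived cortex (SD, n = 5 each). As a log2 value the difference was -0.12 ± 0.08 (SE; 95% interval -0.29 to 0.05), with an exact two-sided permutation p of 0.135 (n = 5 each). With the settings of the report, the interval reaches from 0.818 of the non-deprived level to 1.03-fold of it. The estimate ranged from -0.16 to -0.08 with single arrays left out and was -0.15 under median scaling.

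Genes of glycolysis and glycogen were mostly on the same side as Aldoc. Of 23 listed genes 16 were tested, and 14 estimates were below 0 and 2 above, under quantile normalization as well, and 15 below and 1 above under median scaling. Of all 7453 tested probe sets 3578 were below 0 as fitted, 3728 under quantile normalization and 4327 under median scaling. The median log2 difference was -0.07, beside 0.0066 for all tested probe sets. None passed at an adjusted p of 0.05 in limma, and 1 of 16 had an unadjusted p under 0.05, against 4.79% of all tested probe sets. That gene was Ldha, which makes lactate from pyruvate, with means of 5393 ± 498 in deprived and 6072 ± 316 in non-deprived cortex (SD, n = 5 each; log2 -0.17 ± 0.08 SE, limma p 0.0423). The glucose transporter Slc2a1 had a log2 difference of -0.25 ± 0.12 (SE), the glycolytic kinase Pgk1 one of -0.20 ± 0.12, and Aldoa, the aldolase of most tissues, one of -0.04 ± 0.08. The signals of the 19 listed genes on the array summed to between 53207 and 55769 on deprived and between 55730 and 59365 on non-deprived arrays.

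Mt3 encodes metallothionein 3, a zinc-binding protein of the brain. Its probe set (95340_at) had signals of 8512.2, 9388.2, 5802.0, 10419.3 and 8199.2 in deprived replicates 1 to 5, against 9780.3, 5544.0, 4964.6, 8530.8 and 7818.8 in non-deprived replicates 1 to 5. The lowest deprived array, replicate 3, was still above the 2 lowest non-deprived arrays, and the second highest value of all belonged to non-deprived replicate 1. The means were 8464 ± 1720 in deprived and 7328 ± 2029 in non-deprived cortex (SD, n = 5 each). The log2 difference was 0.23 ± 0.19 (SE; 95% interval -0.17 to 0.63), and without non-deprived replicate 3 it was 0.10. The probe set varied more than 90.4% of those tested.

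Of 10 other metallothionein and zinc genes 8 were tested, 5 with estimates above and 3 below 0, and 0 passed at an adjusted p of 0.05 in limma. Unadjusted p-values under 0.05 were found for 2 of 8, 1 in each direction, against 4.79% of all tested probe sets (2.43% higher and 2.36% lower in deprived cortex). Slc30a4, a zinc transporter, had means of 1456 ± 246 in deprived and 1166 ± 195 in non-deprived cortex (SD, n = 5 each; log2 0.31 ± 0.13 SE). Mtf1, the zinc-sensing factor that drives metallothionein genes, had 306.0 ± 54.2 in deprived and 381.1 ± 53.1 in non-deprived cortex (SD, n = 5 each; log2 -0.31 ± 0.14 SE). The widely expressed metallothioneins Mt1 and Mt2 had log2 differences of 0.33 ± 0.24 and 0.06 ± 0.18 (SE).

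**Figure D3:**
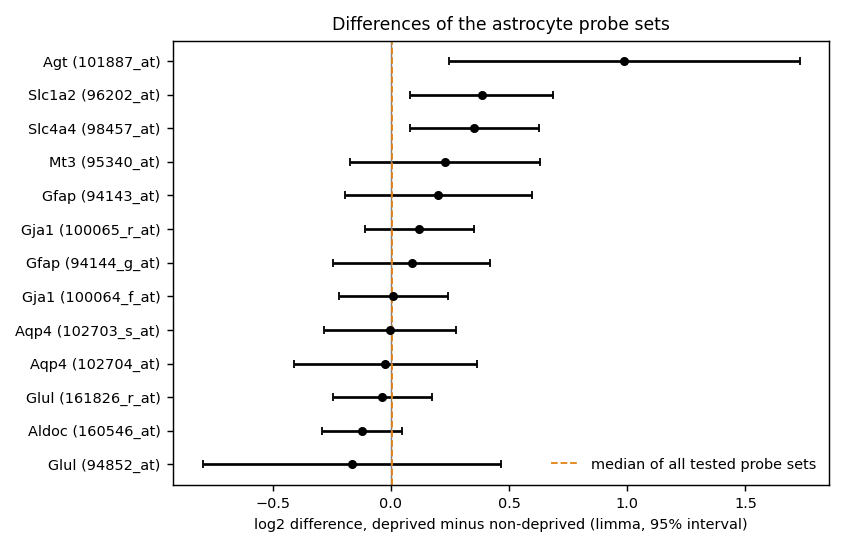
Log2 difference, deprived minus non-deprived (horizontal axis), of each of the 13 probe sets with its 95% interval from limma; the dashed line is the median of all tested probe sets, 0.0066. The intervals of Agt, Slc1a2 and Slc4a4 lie above 0, and those of the 10 others include it.

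The wider set of astrocyte genes lay on both sides of 0. Of 50 further genes listed for astrocytes, not all of them particular to these cells, 35 were tested. Of these, 16 had estimates above 0 and 19 below it (median log2 difference -0.0086), beside 0.0066 for all tested probe sets. Under median scaling 12 were above and 23 below, where all tested probe sets also shifted, to 3126 above and 4327 below. None passed at an adjusted p of 0.05 in limma, and 1 of 35 had an unadjusted p under 0.05, against 4.79% of all tested probe sets. That gene was Htra1, a secreted protease, with means of 2539 ± 266 in deprived and 2889 ± 97.8 in non-deprived cortex (SD, n = 5 each; log2 -0.19 ± 0.08 SE). Nfib, a transcription factor of glial development, had a log2 difference of -0.17 ± 0.09 (SE), and Tst, a mitochondrial sulfur transferase, one of 0.26 ± 0.15. The bright genes Cpe and Apoe had differences of -0.03 ± 0.08 and 0.05 ± 0.08. The summed signal of the 38 genes on the array was 102847 to 121920 on deprived and 106066 to 114558 on non-deprived arrays.

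**Figure D4:**
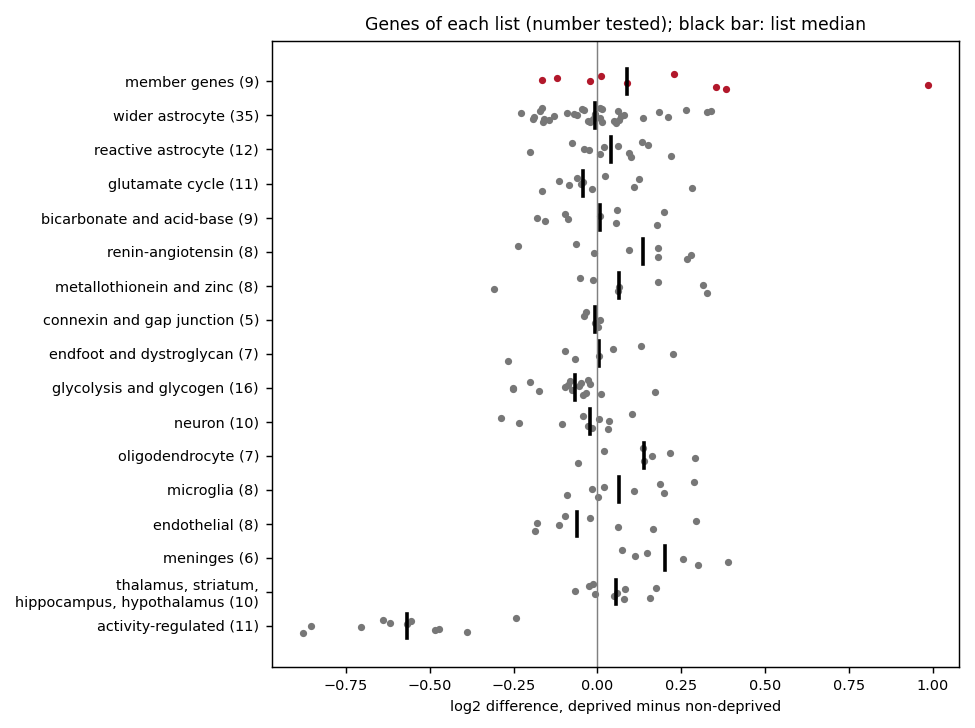
Log2 difference, deprived minus non-deprived (horizontal axis), of each tested gene in 17 lists (rows, number of genes in brackets); each gene is 1 point, the black bar is the list's median, and the 9 genes described are red. The activity-regulated genes lie to the left of 0 (median -0.57), the wider astrocyte genes lie on both sides of it (median -0.0086), and Agt is the point farthest to the right.

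Markers of other cells and of neighbouring tissue were read on the same arrays, since a dissected block of cortex can carry them. All 6 tested genes of the meninges had estimates above 0 (of 8 listed; median log2 difference 0.20), and the signals of the 8 listed genes, all on the array, summed to between 9457 and 16931 on deprived and between 8852 and 12246 on non-deprived arrays. Igf2, a growth factor of the meninges and choroid plexus, had means of 2588 ± 574 in deprived and 2063 ± 119 in non-deprived cortex (SD, n = 5 each; log2 0.30 ± 0.13 SE, limma p 0.0351), and Ptgds, a prostaglandin synthase, had 7380 ± 2754 in deprived and 5508 ± 1602 in non-deprived cortex (log2 0.39 ± 0.25 SE). Of 7 tested oligodendrocyte genes 6 were above 0 (5 under median scaling; median 0.14), and of 8 microglial genes 6 (4 under median scaling; median 0.06). Of 8 endothelial genes 3 were above 0 (median -0.06). Of 10 tested markers of thalamus, striatum, hippocampus and hypothalamus 6 were above 0 (median 0.05), and the 15 listed genes on the array had summed signals of 6537 to 7493 on deprived and 6027 to 7230 on non-deprived arrays. Their part in the differences of Agt, Slc4a4 and Slc1a2 was not tested. No gene of these lists passed at an adjusted p of 0.05 in limma, and none was listed at 0 on any array. The choroid plexus markers Ttr, Folr1 and Kl were below the filter, and of the 2 tested genes of that list 1 was above and 1 below 0.

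For comparison, activity-regulated neuronal genes, whose lower level in deprived cortex was known from earlier results, were read on the same arrays. All 11 such genes tested had estimates below 0 (median log2 difference -0.57), and 0 had an adjusted limma p under 0.05. An unadjusted limma p under 0.05 was found for 10 of them, against 4.79% of all tested probe sets (2.36% lower in deprived cortex).

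Genes whose arrays moved most like 4 of the astrocyte genes were sought by the Pearson correlation of log2 values over the 10 arrays after each group's mean was removed. As the highest values among all tested probe sets from a shared set of arrays, these correlations are descriptions. For Agt they were Lpar1, a lysophosphatidic acid receptor (r = 0.91), Abcd2, a peroxisomal transporter (0.90), and Nr1i3, a nuclear receptor (0.88). For Slc4a4 they were Psap, Emc6 and Pex14 (r = 0.93, 0.91 and 0.90). For Slc1a2 they were Hopx, Wee1 and Ptprz1, a phosphatase of astrocytes and oligodendrocyte precursors (r = 0.92, 0.88 and 0.88), and for Mt3 Pstk, Psmb5 and Rac3 (r = 0.98, 0.95 and 0.94). Of these 12 genes, Nr1i3 alone had an unadjusted limma p under 0.05 between the groups (log2 0.25 ± 0.09 SE), against 4.79% of all tested probe sets.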

How the data were processed

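The authors' deposited values are MAS5 signal intensities on a linear scale, 1 per probe set and array; MAS5 is named in the submitters' processing notes, without a version or a scaling target. A mean trimmed by 2% at each end of the deposited intensities was 500 on all 10 arrays after rounding to a whole number, so that differences are relative to the average of an array. RNA was extracted with Trizol, per the labels' protocols. Arrays carry no read depth, and their number limits the precision. The annotation table gave 1 symbol to 10833 of 12422 probe sets, several to 396 and none to 1193; symbols were updated through Entrez IDs (10817 matched).

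Intensities were converted to log2(signal + 16), where 16 is the rounded 10th percentile of all values. Fold changes on this scale understate those of dim probe sets. The 7453 probe sets at or above the 40th percentile of mean log2 values, control sets excluded, were tested with limma 3.58.1 (R 4.3.3; lmFit, eBayes with intensity trend, Benjamini-Hochberg adjustment, no covariate); the fit was tested on simulated data. A gene of a list was represented by its tested probe set with the highest mean. For single values, an exact two-sided permutation test ran over the 252 assignments. The named genes are all probe sets of the 10 genes, list genes with an unadjusted p under 0.05 or among the 3 smallest p, the 2 brightest marker genes, and 3 genes most like each of Agt, Slc4a4, Slc1a2 and Mt3; only some of those the rule allows are printed. Other genes named were chosen after their values were seen. The genes and lists were chosen with earlier results of these data known. Alternatives were other pseudocounts, filters, normalizations, no trend, a replicate block, the mean of all tested probe sets of a list gene and single-array omissions.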

Additional observations from a re-analysis of the deposited data

How the results depend on the processing

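The count of members at an adjusted p of 0.05 was 0 under every alternative tried. The count at an unadjusted p under 0.05, 3 with all arrays, was 1 (Slc4a4) with a filter at the 60th percentile, which leaves Agt and Slc1a2 untested, and 2 to 3 with single arrays left out. Agt was under the filter, and so not counted, in 4 of the 10 single-array omissions. Without non-deprived replicate 4, the 3 were Slc4a4, Slc1a2 and 100065_r_at of Gja1 (limma p 0.0439). Over all tested probe sets, limma called 0 at an adjusted p of 0.05 with the settings of the report, 2 with a pseudocount of 64, 2 with the filter at the 60th percentile, and 0 to 5 with single arrays left out (5 without non-deprived replicate 1, 1 without deprived replicate 4). A replicate block gave 6 calls, with 0 among the members. Same-numbered samples deviated together with correlations of 0.02 to 0.23, with 4 of 5 above 0.1, and 9 of 10 arrays correlated best with their own number; the labels do not say that a number marks shared animals. In the fit with the block Agt had an unadjusted p of 0.0014 and an adjusted p of 0.42; over all its alternatives the adjusted p lay between 0.42 and 1.00. With the mean of all tested probe sets of each gene, the median log2 difference of the microglial genes was 0.02 in place of 0.06. The signs of Agt, Slc4a4, Slc1a2, Mt3, Aldoc, 94143_at of Gfap and 100065_r_at of Gja1 held under every alternative in which they were tested; those of both Aqp4 and both Glul probe sets, 94144_g_at of Gfap and 100064_f_at of Gja1 changed in 1 to 5 of them. Signals of dim probe sets such as Agt limit what can be read.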
